A study of Mus musculus with 8 samples.

Results

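Ribosome footprints on 10 genes were examined in mouse liver, namely the apolipoprotein genes Apoa1, Apoa2, Apoa4, Apoa5, Apob, Apoc3, Apoe, Apoh and Apom and the lipid loading gene Mttp. They were picked by gene symbol, and all 10 had a line among the 7500 genes of the deposited table. Apoa2 had the highest footprint density of all 7500 genes, and 4 of the 10 genes were among the first 10. Together the 10 genes, 0.133% of the genes listed, took 8.66% of all footprints.

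Ribosome profiling sequences the short pieces of mRNA that a ribosome shields from nuclease, so the number of pieces on a coding sequence follows the number of ribosomes engaged on it. The animals were male FVB/N mice given, from weaning and for 6 weeks, a torula yeast diet without added selenium (0 Se) or the same diet with 0.1 ppm selenium as sodium selenite (0.1 Se). The labels list 8 libraries from 4 mice, that is 2 mice and 4 libraries per diet. The study was made to compare the diets. The table gives each gene 1 average level over all libraries, in log2 CPM (CPM, reads on a gene per 1000000 reads), with no value for a mouse or a diet, and its 4 columns holding the authors' own comparison of the diets were not used. Each level below is therefore an average over both diets, without an SD or n, the depth of the libraries is unknown, and no diet difference is given. Shares of all footprints, here and above, are sums of average CPM over 1000000, not counts of reads.

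The liver packs triglyceride and cholesteryl ester into very low density lipoproteins (VLDL) around a single large protein, apoB, which the microsomal triglyceride transfer protein (Mttp) loads with lipid in the endoplasmic reticulum. High density lipoproteins (HDL) are built instead around apoA-I and apoA-II. Smaller apolipoproteins, among them apoE, apoC-III, apoA-IV and apoA-V, move between particles and set how quickly lipases and receptors clear them.

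Levels of different genes can be compared only per length, so each level was divided by the coding length on which footprints were counted. The resulting footprint density is in CPM per kilobase (kb). The length column was 60 bases, or 20 codons, shorter than an annotated coding sequence of the same gene for 7093 of 7260 genes, the 10 genes included. The study left out the first 15 and last 3 codons. The difference is met if the start and stop codons were left out as well. The coding sequence of Apoa2 is shown because it had the highest density of all and the counted length behind it is short. It has 309 bases on the plus strand of chromosome 1, in the transcript at 173155213 to 173156509 of the mm9 build, of which 297 are printed. Lower case marks the 16 codons at the start that were left out under this reading, and capitals mark the 249 bases that were counted. The final 4 codons, also left out, are not printed.
Apoa2: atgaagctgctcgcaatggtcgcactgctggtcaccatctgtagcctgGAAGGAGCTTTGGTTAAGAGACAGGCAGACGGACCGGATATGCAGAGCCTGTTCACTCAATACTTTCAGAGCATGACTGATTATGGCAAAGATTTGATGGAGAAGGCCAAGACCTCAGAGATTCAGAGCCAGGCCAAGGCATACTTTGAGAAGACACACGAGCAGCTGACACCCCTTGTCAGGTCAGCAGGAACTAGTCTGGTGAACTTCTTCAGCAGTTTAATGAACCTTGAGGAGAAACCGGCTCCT

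The uncounted codons make up 19.4% of the coding sequence of Apoa2 and 20% of that of Apoc3, but 0.444% of that of Apob. Over the full coding length, the density of Apoa2 was 66976 in place of 83115 CPM per kb, which was still the highest of the table. The order of the 10 genes was then the same at all 10 places, but Apoc3 moved from rank 10 to rank 12, which left 3 of them in the first 10. Over unique windows, that is with each length reduced by the share of its 30-base windows also found in another gene, Apoa2 was at rank 2 and Apoc3 at rank 14, which also left 3. The densities of the 10 genes themselves did not change under this setting. Genes with shared windows moved above them, such as Rpl9 with 99.8% of its windows shared.

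Apoa2 and Apoa1 encode the structural proteins of HDL. Apoa2 had an average level of 14.34 log2 CPM, or 20696 CPM, and a density of 83115 CPM per kb, which was 7370.4 times the median density of all genes (11.3 CPM per kb). The next gene below it was Alb, which encodes serum albumin, with 51734 CPM per kb. Apoa1, whose product is the main protein of HDL and activates the enzyme Lcat, had 14.20 log2 CPM and a density of 25548 CPM per kb, the rank 6 of 7500. The level of Apoa1 was 18778 CPM, close to that of Apoa2, but its density lay 3.25-fold below, since its counted length is 735 bases against 249.

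Apoa4 encodes an apolipoprotein of HDL and of chylomicrons that rodents make in intestine and liver. Apoa4 had 9.26 log2 CPM and a density of 545 CPM per kb, 46.9-fold below that of Apoa1, at rank 190. Apom encodes a lipocalin that carries sphingosine-1-phosphate on HDL. Apom had 9.06 log2 CPM, the lowest level of the 10 genes in CPM, yet a density of 1039 CPM per kb at rank 95, above Apoa4, because its counted length is 513 bases. Apoa1, Apoa2, Apoa4 and Apom together took 4.06% of all footprints, or 46.9% of those on the 10 genes.

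**Figure D1:**
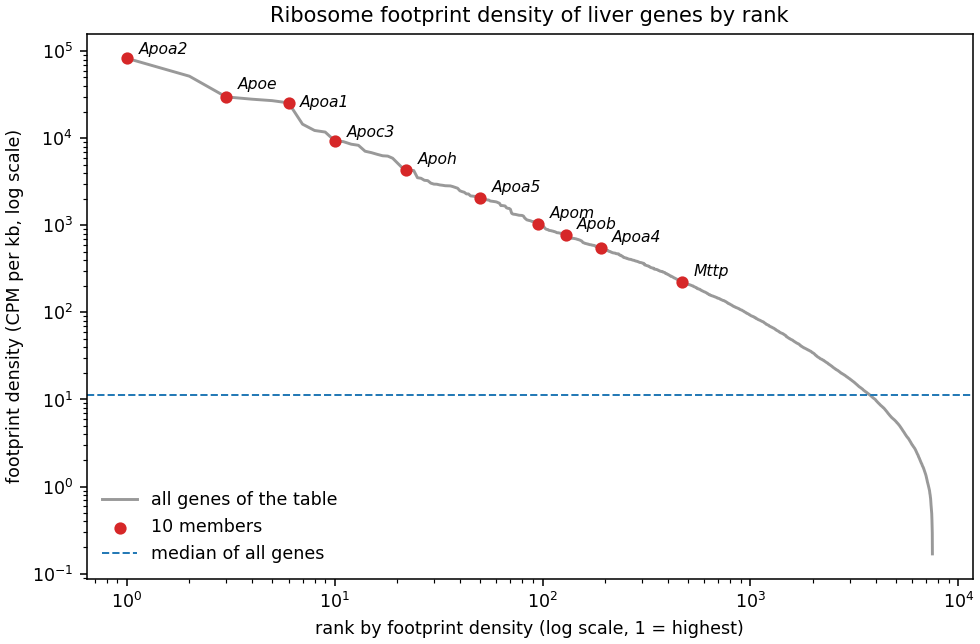
Footprint density (CPM per kb, log scale) of all 7500 genes against their rank (log scale), with the 10 lipoprotein genes as red points and the median of all genes as a dashed line at 11.3 CPM per kb. Apoa2 is at rank 1 and Mttp, the lowest of the 10, at rank 468 with 224 CPM per kb.

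Apoe and Apoc3 act on the clearance of triglyceride-rich particles. Apoe, whose product is the ligand by which remnants are taken up into liver cells, had the highest level of the 10 genes in CPM, 14.68 log2 CPM or 26231 CPM. Its density was 29944 CPM per kb at rank 3, between Alb and Ttr, the gene of transthyretin. Apoe exceeded Apoa1 by 1.17-fold in density. Without a value per library, it cannot be said whether neighbours this close differ beyond the spread between mice. Apoc3, which encodes an inhibitor of lipoprotein lipase, had 11.13 log2 CPM and a density of 9369.7 CPM per kb at rank 10.

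Apoa5 encodes a protein of low abundance in plasma that promotes triglyceride clearance by lipoprotein lipase, the opposite role to that of Apoc3. Apoa5 and Apoc3 had nearly the same number of footprints, 2157 and 2249 CPM. Per length they differed, with a density of 2060.5 CPM per kb for Apoa5 (rank 50), 4.55-fold below that of Apoc3. Apoh encodes beta2-glycoprotein I, a phospholipid-binding plasma protein that was first grouped with the apolipoproteins. Apoh had 12.06 log2 CPM and a density of 4356 CPM per kb at rank 22, next to Ahsg and Serpina3k, also genes of plasma proteins.

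The assembly pair Apob and Mttp stood at the lower end per length. Apob had 13.36 log2 CPM, or 10504 CPM, which was the rank 10 of all genes without regard to length. Its counted length of 13458 bases is the longest of the 10 genes, and its density was 780.5 CPM per kb at rank 129. Per length, Apoa1 exceeded Apob 32.7-fold, whereas in CPM it exceeded Apob 1.79-fold. Mttp had 9.22 log2 CPM, or 598 CPM, and the lowest density of the 10 genes, 224 CPM per kb, still 19.9 times the median of all genes. The density of Mttp was 3.49-fold below that of Apob, and its level in CPM was 17.6-fold below.

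**Figure D2:**
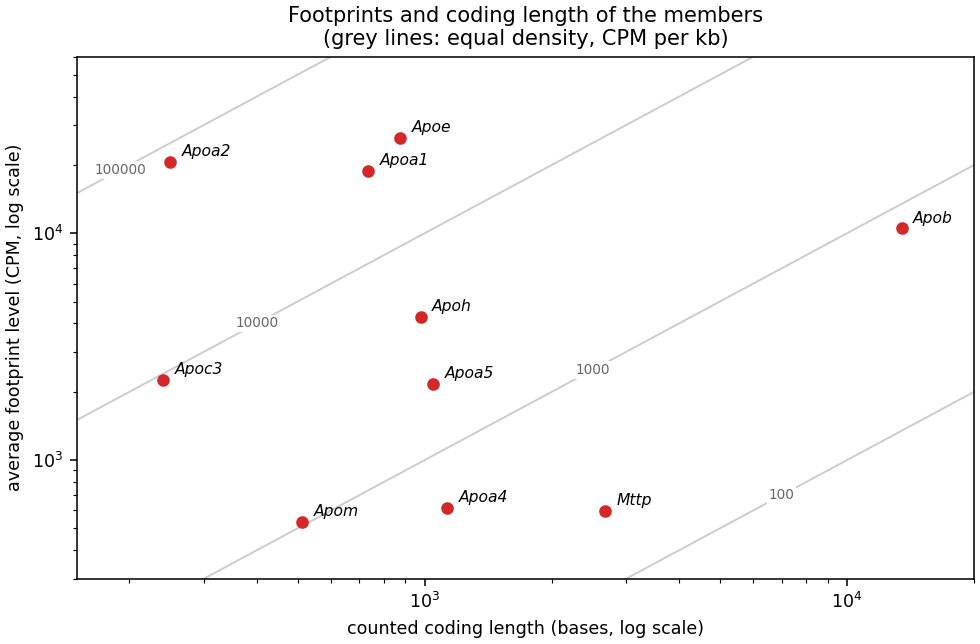
Average footprint level (CPM, log scale) of the 10 genes, 1 point each, against counted coding length (bases, log scale), with grey lines of equal density, each labelled in CPM per kb. Apoa2 and Apob differ 1.97-fold in CPM and 106-fold in density, and Apom, Apoa4 and Mttp lie together in CPM (533 to 615) but not in density.

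By footprints alone, 3 genes, Apoe, Apoa2 and Apoa1, held 75.9% of the footprints on the 10 genes, and Apob brought this to 88.0%. The other 6 held 12.0%. From Apoa2 down to Mttp the densities covered a 371-fold range, or 8.54 on the log2 scale, with a median of 3208 CPM per kb. That median was 284 times the median of all genes. In whole tissue, a low density can come from fewer cells of a type or from less of the mRNA per cell, which cannot be told apart here, and mRNA amount and ribosomes per mRNA are not separated either.

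The value for Apob has a limit of its own. The enzyme Apobec1 changes a C to U in the Apob mRNA, in mouse liver as well as intestine, turning a CAA codon into a stop codon, so that a shorter apoB is made. Ribosomes on edited mRNA stop there. The site was looked for in the coding strand alone, as an in-frame CAA shortly before TGATCAG, the start of the mooring sequence that the enzyme complex needs. These 7 bases occur 2 times in the coding sequence and 1 time behind such a codon, 4 bases after the edited base. The codon is number 2179 of 4505, on chromosome 12 at 8014860 to 8014862 of mm9, in exon 26 of 29, an exon that holds 55.2% of the coding bases. The sequence around it, chr12:8014830-8014892 on the plus strand, is shown with the edited codon in capitals.
Apob: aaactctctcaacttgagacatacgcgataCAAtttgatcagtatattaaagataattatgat

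Of the counted length of Apob, 48.2% lies before this codon. If all its footprints lay there, its density would be 1619 in place of 780.5 CPM per kb and its rank 67 in place of 129. The first value is the highest density that the stretch before the codon could have had, since the table does not divide the footprints of a gene by position. It would still leave Apob below Apoa5, but would place it above Apom, which had 1039 CPM per kb. Apobec1 itself had no line and was not analysed here.

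Where the genes lie was then set beside their densities. Apoa1, Apoc3, Apoa4 and Apoa5 form a cluster on chromosome 9, within 43.3 kb of mm9 that holds 4 protein-coding genes in all. Apoa1 (46036663 to 46038549, plus strand) is followed after 2584 bases by Apoc3 (46041134 to 46043382, minus strand), then after 5396 bases by Apoa4 (46048779 to 46051542, plus strand). Apoa5 (46077161 to 46080002, plus strand) lies 25618 bases further on. Along the chromosome their densities were 25548, 9369.7, 545 and 2060.5 CPM per kb, so the range within this cluster, 46.9-fold, ran from the rank 6 to the rank 190 of the table. The cluster took 2.38% of all footprints.

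Apoe (chromosome 7, 20281621 to 20284401, minus strand) lies in a cluster of its own with Apoc1, Apoc4 and Apoc2, also 4 protein-coding genes, within 27.5 kb. Apoc1, which encodes a small apolipoprotein that hinders uptake of remnants, had 8564 CPM per kb, and Apoc4 had 2298. Apoc2, which encodes the activator of lipoprotein lipase, had the lowest density of this cluster, 709 CPM per kb. The densities fell with distance from Apoe, over a 42.2-fold range, and the cluster took 2.89% of all footprints. For Apoc4, 13.6% of the windows of 30 bases also occur in the transcripts of another annotated gene, so its value is less certain.

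**Figure D3:**
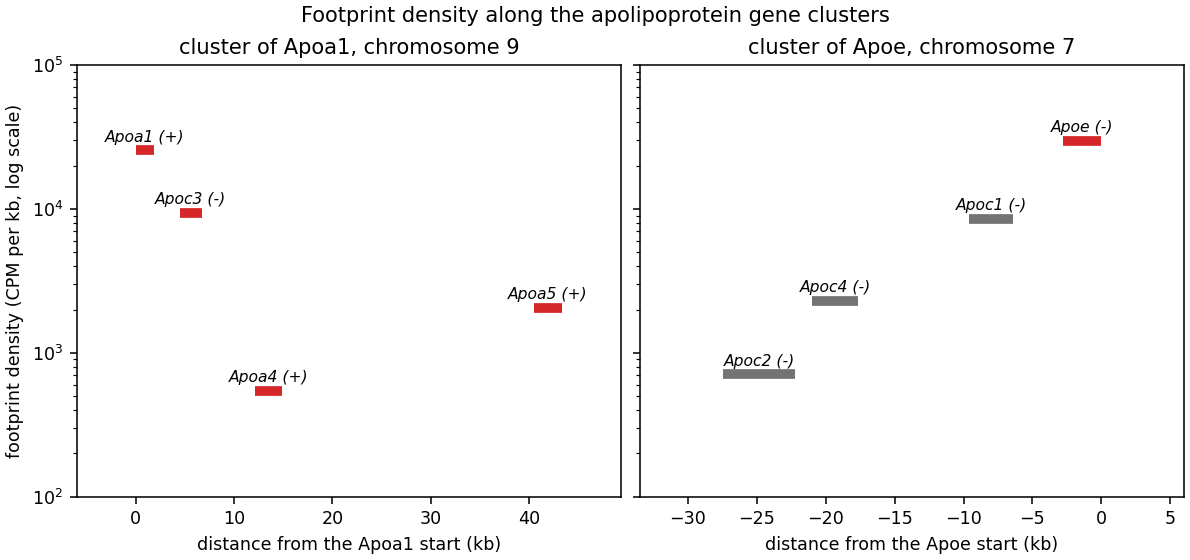
Footprint density (CPM per kb, log scale) of the genes of the chromosome 9 and chromosome 7 clusters, drawn as bars over the stretch of each transcript, by distance in kb from the start of Apoa1 or Apoe, with the strand in brackets. Red bars are genes of the 10 and grey bars the neighbours Apoc1, Apoc4 and Apoc2, and density falls from Apoe at 29944 to Apoc2 at 709 CPM per kb.

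The remaining genes lie apart from each other. Apoh (11, 108256607 to 108275710, plus strand) has 8 exons, Apom (17, 35265942 to 35268995, minus strand) has 6, and Mttp (3, 137752819 to 137806352, minus strand) has 20, where the first number in each bracket is the chromosome. Apob (12, 7984454 to 8023641, plus strand) has 29. Apoa1, Apoa2, Apoc3 and Apoe each have 4 exons, and Apoa4 and Apoa5 have 3. These 6 genes have 3 coding exons each.

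The coding sequences of the small exchangeable apolipoproteins are known to be built from repeated units of 11 or 22 codons, which encode amphipathic helices that lie on the lipid surface. Each coding sequence was compared with itself at 34 shifts, from 21 to 120 bases in steps of 3. A shift of 66 bases, or 22 codons, gave the most identical bases in Apoa4 (40.6%), Apoe (37.5%), Apoa5 (34.9%) and Apom (29.8%). In Apoa1 it came just after a shift of 33 bases, with 36.6% against 37.0%. The lead in Apom was small, since 69 bases gave 29.4%, and 33 bases gave 22.8%. The medians over all shifts were 31.6% in Apoa4, 30.0% in Apoe, 29.1% in Apoa5, 24.9% in Apom and 29.1% in Apoa1. Among 6256 coding sequences of at least 600 bases, the median at 66 bases was 27.2%, and 136 (2.17%) had their highest value at this shift. Apom, with 573 coding bases, was too short to be among them.

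Apoa4, Apoa1, Apoe and Apoa5 ranked 1, 2, 3 and 6 of these 6256 by how far the value at 66 bases exceeded the gene's own median. By the value at 66 bases itself they ranked 2, 8, 6 and 18. The same genes carry most of their coding bases in 1 exon, 85.1% in Apoa4, 75.1% in Apoa1, 77.3% in Apoe and 87.3% in Apoa5. Apob does so too, with 55.2%, and how common this is among all genes was not computed. In Apoa2, Apoc3, Apoh, Apob and Mttp another shift gave the highest value, and the values at 66 bases were 25.9%, 30.8%, 27.1%, 26.9% and 25.3%. By density, Apoe, Apoa1, Apoa5 and Apoa4 stood at ranks 3, 6, 50 and 190.

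**Figure D4:**
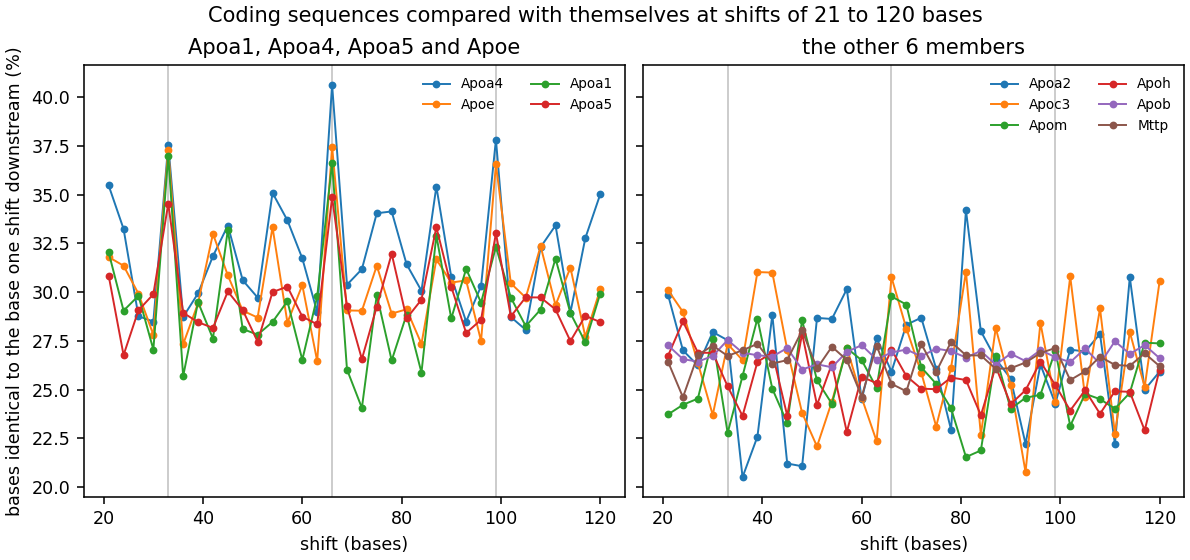
Share of bases (%) identical to the base 1 shift further on, for shifts of 21 to 120 bases within the coding sequence of each of the 10 genes, with grey lines at 33, 66 and 99 bases. Apoa4, Apoe, Apoa1 and Apoa5 (left) rise at 33 and 66 bases, Apoa4 to 40.6% at 66. Of the other 6 genes (right), only Apom has its highest value at 66 bases, with 29.8%. Apoa2 has its highest value at 81 bases, with 34.2%, and so has Apoc3, with 31.1% against 30.8% at 66.

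To show the repeat, the 4 consecutive units of 66 bases that are most alike are printed for Apoa4 and then for Apoa1, with capitals where a base is the same in at least 3 of the 4 units. In Apoa4 they lie at chr9:46050561-46050824 of mm9, in exon 3 of 3 on the plus strand, where 41 of 66 positions are shared by at least 3 units and pairs of units have on average 51.5% of bases in common.
Apoa4, codons 126 to 147: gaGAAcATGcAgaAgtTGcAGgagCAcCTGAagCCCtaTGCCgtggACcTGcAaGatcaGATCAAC
Apoa4, codons 148 to 169: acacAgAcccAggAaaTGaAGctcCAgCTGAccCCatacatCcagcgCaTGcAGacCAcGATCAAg
Apoa4, codons 170 to 191: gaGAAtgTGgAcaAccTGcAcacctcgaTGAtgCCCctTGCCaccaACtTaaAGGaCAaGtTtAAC
Apoa4, codons 192 to 213: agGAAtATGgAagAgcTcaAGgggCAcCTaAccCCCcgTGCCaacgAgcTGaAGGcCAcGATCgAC

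In Apoa1 they lie at chr9:46038015-46038278, in exon 4 of 4 on the plus strand, where 34 of 66 positions are shared by at least 3 units and pairs have on average 46.0% in common.
Apoa1, codons 109 to 130: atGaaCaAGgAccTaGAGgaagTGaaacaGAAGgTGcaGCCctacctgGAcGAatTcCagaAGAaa
Apoa1, codons 131 to 152: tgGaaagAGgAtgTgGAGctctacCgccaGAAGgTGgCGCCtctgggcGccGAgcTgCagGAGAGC
Apoa1, codons 153 to 174: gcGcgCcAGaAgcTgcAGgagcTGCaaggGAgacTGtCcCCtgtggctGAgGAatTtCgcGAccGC
Apoa1, codons 175 to 196: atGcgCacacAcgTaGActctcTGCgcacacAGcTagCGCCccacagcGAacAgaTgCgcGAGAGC

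Reads with more than 1 match were dropped by the authors, whose alignment allowed 2 mismatches, so windows shared between genes were counted. No window of 30 bases from the coding sequence of any of the 10 genes occurred exactly in the transcript of another annotated gene. Between the 10 genes, in 45 pairs, the longest run in common was 15 bases, between Apoa5 and Apob, followed by 14 between Apoa4 and Apoe. Windows that match with mismatches were not counted.

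The other genes of lipoprotein metabolism were described from lists chosen by function. Of 12 other apolipoprotein genes 9 had a line, and 8 of these lay above the median density of all genes. The highest were Apoc1, Apoc4 and Clu, the gene of clusterin, with 8564, 2298 and 1672 CPM per kb. The lowest was Apoo, a mitochondrial protein in spite of its name, with 3.09 CPM per kb, and 91.8% of its windows were shared with another gene. Their median was 709 CPM per kb, below the 3208 of the 10 genes, and 1 of the 9 exceeded it.

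Of 20 genes of VLDL assembly and secretion 14 had a line, with a median of 157 CPM per kb, and 12 exceeded the median of all genes. P4hb, a protein disulfide isomerase that is the partner subunit of Mttp in the transfer protein, was the highest with 1306 CPM per kb, and thus exceeded Mttp itself. The carboxylesterase gene Ces3a followed with 1050.4 CPM per kb, although 45.2% of its windows were shared with another gene. Sar1b, the GTPase of the vesicles that carry large lipid particles out of the endoplasmic reticulum, had 593 CPM per kb. Klhl12 was the lowest with 5.69 CPM per kb.

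Of 12 genes of HDL formation and remodelling 10 had a line, with a median of 120 CPM per kb. The highest were Pon1, the paraoxonase bound to HDL, with 1108, Lcat, which esterifies cholesterol on HDL, with 221, and the phospholipase gene Gpld1 with 200.2 CPM per kb. Abcg1, a cholesterol exporter, was the lowest with 5.75 CPM per kb, and Pon1 was the only gene of this list with a line that exceeded Mttp. Lcat lay close to Mttp, with 221 against 224 CPM per kb, and values this close cannot be told apart here.

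Of 14 genes of uptake and lipase control 11 had a line, 1 of them (Angptl8) under its older symbol Gm6484, with a median of 58.4 CPM per kb. Angptl4, which encodes an inhibitor of lipoprotein lipase, had 123 CPM per kb, and the lowest was Vldlr with 3.68 CPM per kb.

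For comparison of level, 22 genes of other abundant plasma proteins were taken, of which 20 had a line and 2, Serpinc1 and Kng1, had none. Their median density, 3062 CPM per kb, was near that of the 10 genes, and 10 of the 20 exceeded the median of the 10. Alb, Ttr and Trf, the gene of transferrin, were the highest with 51734, 28165 and 12311 CPM per kb, and Serpina1c was the lowest with 86.6, although 83.3% of its windows were shared with another gene. The 20 genes took 20.8% of all footprints, 9.14% by Alb alone.

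**Figure D5:**
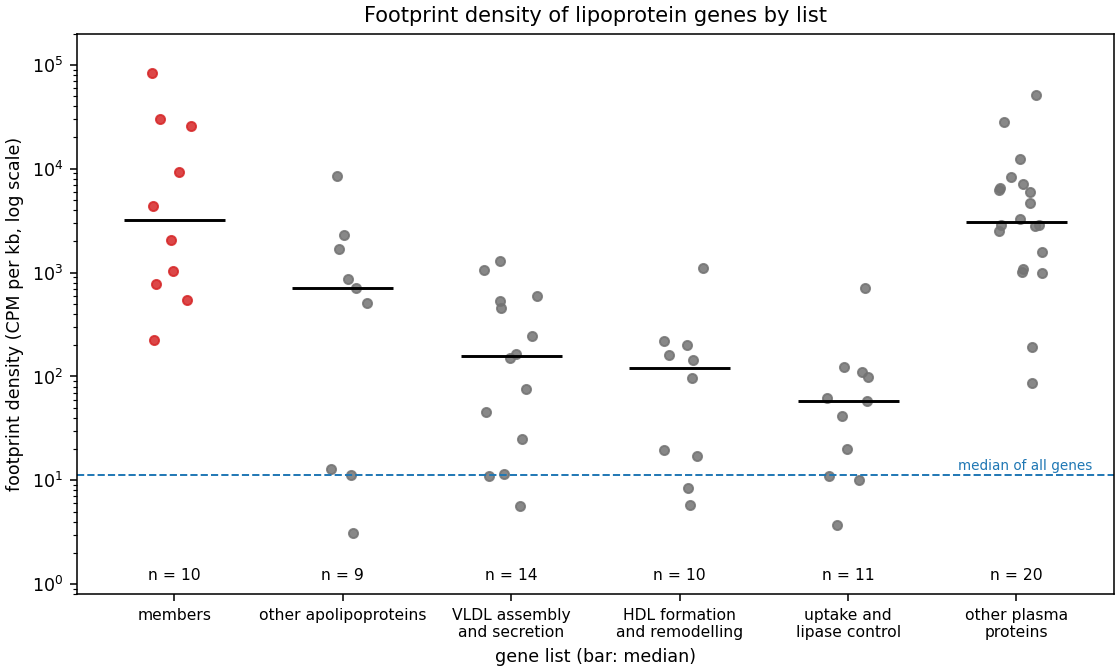
Footprint density (CPM per kb, log scale) of each gene with a line, by list, with a bar at the median and the median of all genes as a dashed line. The 10 lipoprotein genes (red) and the 20 other plasma protein genes have medians of 3208 and 3062 CPM per kb, above the 9 other apolipoprotein genes at 709 and the lists of VLDL, HDL and uptake genes at 157, 120 and 58.4.

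The tissue label was checked against markers of liver cells. Of 10 hepatocyte markers 9 had a line, all but Cps1, and their lowest density, that of Hnf4a, was 209 CPM per kb. Markers of Kupffer cells and other macrophages (7 of 8 with a line) lay between 4.92 and 171 CPM per kb, endothelial markers (5 of 5) between 4.84 and 28.3, stellate cell markers (5 of 5) between 2.54 and 208, and cholangiocyte markers (3 of 4) between 1.26 and 2.84. The intestine also makes Apob, Apoa1 and Apoa4. Of 5 intestinal markers 1 had a line, Fabp2 with 210.1 CPM per kb, and the other 4, Vil1, Cdx2, Lgals4 and Rbp2, had none and were not analysed here. A missing line, as also for Cps1, was not taken as a low level. What part other cells had in the levels was not tested.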

How the data were processed

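Ribosome footprints were measured in 8 liver libraries, grouped by sample title into 0 Se and 0.1 Se. According to the study's methods and the submitters' processing notes, the authors trimmed adapters, removed ribosomal RNA reads and aligned the rest with Bowtie to the longest RefSeq isoform of each gene (mm9), keeping unique alignments with up to 2 mismatches and not counting 15 codons at the start and 3 at the end of each coding sequence. The authors ran edgeR on genes that exceeded 1 CPM in 3 or more samples. Versions of these tools were not given in the sources used here. In log2 CPM, the deposited level of a gene is the authors' average over all libraries. The deposited table also holds 4 columns of fold changes, p-values and adjusted p-values of the authors' own comparison, which were not used, so no test was made and no diet comparison is given.

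CPM was divided by the table's coding length to give density, and all 7500 genes were ranked (Python 3.11.15, pandas 2.3.3, numpy 2.4.6). Ranks are among listed genes only, which hold 85.7% of all footprints, so a gene without a line could stand above them. Positions, exons and sequences came from the GENCODE M1 annotation of the same mm9 build, using the transcript whose coding sequence was 60 bases longer than the counted length. Windows of 30 bases found in transcripts of 2 or more genes counted as shared. Density and ranks were run on simulated data, where the density is recovered by construction. The code that counted the shared windows reported here was not the version tested there. The genes named were the 10 members and, in each list, the 3 highest and the lowest by density, with others where a result turned on them; some genes of the uptake list are not reported here. Members and lists were chosen with earlier results of these data known. The comparison of coding sequences with themselves, the choice of units printed and the bound for Apob were added after seeing the data. Without values per library or depth, no error, interval or detection limit could be given.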

Additional observations from a re-analysis of the deposited data

How the results depend on the processing

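Without a spread or a depth, a value was taken as moved when it changed by more than 1.5 times. The median density of the 10 genes was 3208 CPM per kb, 3026 over the full coding length and 3208 over unique windows. Their median rank was 36, and lay between 35 and 50.5 by full coding length, by unique windows, among the 4998 genes at or above 3 log2 CPM, or by CPM with no length. Their share of footprints was 8.66% of all footprints and 10.1% of those on listed genes, which hold 85.7%. By CPM with no length only 2 genes kept their place in the order of the 10, and the ranks of 5 moved, that of Apob from 129 to 10; by full coding length and by unique windows all 10 kept their place. Ranking by unique windows, chosen after seeing the data, moved the ranks of 2, Apoa2 from 1 to 2 and Apoe from 3 to 5. The densities of Apoa2 and Apoe did not change, since none of their windows were shared. Rpl9, with 99.8% of its windows shared and 0.944 bases of unique length left, moved above Apoa2. Cfb, with 97.4% shared, also moved above Apoe. With all its footprints placed before the edited codon, the density of Apob moved too, from 780.5 to 1619 CPM per kb. Both settings for amphipathic protein windows were not run, because no protein sequences were used here. The number of genes in the first 10 fell from 4 to 3 by full coding length and by unique windows. No paired analysis was possible because only pooled averages were used, with no value per mouse, and mouse numbers are not shared between diets.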
